A study of Mus musculus with 4 samples.

Results

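The 6 CXC chemokine genes Cxcl1, Cxcl2, Cxcl9, Cxcl10, Cxcl12 and Cxcl16 were followed across the cell classes of the mouse brain vasculature, with and without chronic social defeat (CSD). They were taken by symbol from the 31053 genes of the count matrices. The rule for taking them used no measured value, but the set was chosen with earlier results of these data known. The cells came from brains of male wild-type C57BL/6 mice aged 12 to 14 weeks. CSD mice lived for 14 days beside an aggressive CD-1 mouse in its cage, and the partition between them was taken out briefly every day for an encounter. Home cage (HC) mice also lived for 14 days beside a CD-1 mouse, but the partition was never taken out. Suspensions of each brain, without cerebellum, striatum, brainstem and olfactory bulbs, were digested with collagenase at body temperature and enriched on beads for CD31, an endothelial surface protein, before droplet-based single-cell RNA sequencing. There were 4 libraries, CSD 1, CSD 2, HC 1 and HC 2, each a pool of 4 mice (16 in all), so n = 2 pools per group. A p-value of CSD against HC rests on the spread between pools, and mice within a pool could not be separated. With so few pools, the tests used draw each gene's spread toward that of all genes tested. A small p-value therefore does not come from the pools of that gene alone. Comparisons between classes took library as a block. Their p-values rest on how far differences between classes vary from library to library, with the spread of each gene drawn toward that of others in the same way. A library sum also cannot tell fewer positive cells in a class from less RNA per cell, and shares of positive cells are given beside levels for that reason.

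CXC chemokines are small secreted proteins that guide leukocytes along gradients and are held on the surface of blood vessels. Cxcl1 and Cxcl2 attract neutrophils through the receptor Cxcr2 and are induced by NF-kappaB downstream of cytokines such as IL-1 and TNF. Cxcl9 and Cxcl10 attract activated T cells through Cxcr3 and are induced by interferons. Cxcl12 is made without stimulation, signals through Cxcr4 and is scavenged by the atypical receptor Ackr3. Cxcl16 is unusual in being made as a transmembrane protein, which is shed by proteases and binds Cxcr6.

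Sequences upstream of 4 of the genes are shown because they set Cxcl1 and Cxcl2, the members called with CSD, beside an interferon-linked and a constitutive member. Cxcl1 (ENSMUSG00000029380, chr5:90891241-90893115, plus strand) and Cxcl2 (ENSMUSG00000058427, chr5:90903871-90905938, plus strand) are neighbours with start sites 12654 bases apart. Cxcl9 (ENSMUSG00000029417, chr5:92321347-92328079, minus strand) and Cxcl10 (ENSMUSG00000034855, chr5:92346638-92348889, minus strand) form another pair with start sites 20810 bases apart. Cxcl12 (ENSMUSG00000061353) lies at chr6:117168535-117181367 on the plus strand, and Cxcl16 (ENSMUSG00000018920) at chr11:70453983-70459984 on the minus strand. The 250 bases before each RefSeq start site (GRCm38.p6) are given 5′ to 3′ on the strand of the gene, at chr5:90890995-90891244 for Cxcl1, chr5:90903649-90903898 for Cxcl2, chr5:92348890-92349139 for Cxcl10 and chr6:117168285-117168534 for Cxcl12. Capitals mark matches on either strand to a kappaB pattern (GGG, any 3 bases, then TTCC) or, once in Cxcl10, to an interferon response pattern (GAAA, any 2 bases, then GAAA).
Cxcl1: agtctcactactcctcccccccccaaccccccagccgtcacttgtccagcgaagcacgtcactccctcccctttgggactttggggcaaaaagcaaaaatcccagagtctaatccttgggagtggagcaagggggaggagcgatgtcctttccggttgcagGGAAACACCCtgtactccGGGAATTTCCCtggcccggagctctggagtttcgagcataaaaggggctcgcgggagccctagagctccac
Cxcl2: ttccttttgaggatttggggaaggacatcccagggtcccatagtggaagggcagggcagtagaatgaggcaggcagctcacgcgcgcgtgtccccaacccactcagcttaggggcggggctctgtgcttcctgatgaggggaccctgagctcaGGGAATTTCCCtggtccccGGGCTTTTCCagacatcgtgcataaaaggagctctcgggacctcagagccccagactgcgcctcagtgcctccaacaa
Cxcl10: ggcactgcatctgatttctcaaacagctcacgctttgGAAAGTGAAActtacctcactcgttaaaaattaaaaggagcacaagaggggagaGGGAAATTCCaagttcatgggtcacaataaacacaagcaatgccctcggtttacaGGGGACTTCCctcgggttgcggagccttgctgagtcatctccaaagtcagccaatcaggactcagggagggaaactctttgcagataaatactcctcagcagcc
Cxcl12: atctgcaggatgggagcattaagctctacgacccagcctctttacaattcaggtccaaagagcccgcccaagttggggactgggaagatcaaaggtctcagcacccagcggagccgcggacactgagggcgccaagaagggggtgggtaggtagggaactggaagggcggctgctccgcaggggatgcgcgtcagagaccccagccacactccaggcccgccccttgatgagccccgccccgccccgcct
Matches to the kappaB pattern began 89, 71 and 70 bases before the start site in Cxcl1 and 97, 96 and 78 bases before it in Cxcl2, where the matches 1 base apart are the same stretch read on both strands. Cxcl10 held it 159 and 104 bases upstream, and its interferon response match began 213 bases upstream. Neither pattern was found in these windows of Cxcl9 and Cxcl12. The kappaB pattern occurred in 4.65% and the interferon response pattern in 2.98% of 32851 promoter windows of the same length, and a match of letters is not evidence that a factor binds there.

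Counting barcodes of at least 500 unique molecular identifiers (UMIs), at least 250 genes and at most 25% mitochondrial UMIs as cells left 14415 cells, 2553 to 4934 per library, from 27297599 to 30361474 UMIs per library. Median depth ran from 1408 UMIs per cell in HC 2 to 2357 in HC 1. Cells were put into classes by fixed marker genes, none of them a CXC chemokine, and 1462 cells (10.1%) stayed unassigned. Of the 19 classes, 11 had at least 10 cells in every library and were tested. They were capillary endothelial cells (EC; 3823 cells), arterial EC (224), venous EC (159), pericytes (468), arterial smooth muscle cells (SMC; 410), fibroblasts (70), microglia (4567), T cells (113), astrocytes (397), choroid plexus cells (1565) and ependymal cells (152). Levels are given as CPM, the UMIs of a gene divided by the UMIs of all genes in the same class and library and multiplied by 1000000. All markers of venous EC, pericytes, SMC, fibroblasts and microglia were highest in their own class, as were 7 of 8 markers of capillary EC and of arterial EC. Members of the chemokine set themselves were among the 10 leading genes of capillary EC (Cxcl12), venous EC (Cxcl1) and border-associated macrophages (BAM; Cxcl2). Any 2 libraries shared 0 to 9 cell barcodes.

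Cxcl12, the constitutive ligand, was highest in capillary EC. Its level in capillary EC was 1827 CPM in CSD 1, 2627 in CSD 2, 2626 in HC 1 and 2857 in HC 2, a mean of 2484 ± 452 (SD, n = 4 libraries). Arterial EC followed at 1170 ± 403 CPM and fibroblasts at 1149 ± 415 CPM, and these 2 classes overlapped. Venous EC held 454 ± 161 CPM and pericytes 216 ± 71.6 CPM, again with overlapping ranges, although venous EC was the higher in each of the 4 libraries. In the other 6 tested classes the mean was at most 24.6 CPM.

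The order was also seen cell by cell. A Cxcl12 UMI was found in 77.4% of capillary EC (exact 95% binomial interval 76.1 to 78.7%, counting error only), 71.4% of fibroblasts, 34.0% of venous EC and 1.93% of microglia. At 500 UMIs per cell, which puts all cells at 1 depth, these shares were 60.7%, 35.7%, 17.0% and 0.613%. Microglia should lack Cxcl12 and serve as background, with a median depth above that of capillary and venous EC in each library. Capillary EC made up 26.5% of cells and held 73.1% of the Cxcl12 UMIs in cells, and no single capillary EC held more than 1.25% of a library's capillary Cxcl12 UMIs. Barcodes of at most 100 UMIs, which contain free RNA, carried Cxcl12 at 154 CPM on average, with 81.4 and 89.9 CPM in CSD 1 and HC 1 and 208 and 238 CPM in CSD 2 and HC 2. Microglial Cxcl12 was likewise lower in CSD 1 and HC 1 (4.65 and 5.18 CPM) than in CSD 2 and HC 2 (9.41 and 24.1 CPM), and the part of free RNA in it was not tested.

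Every contrast of Cxcl12 between classes passed edgeR's quasi-likelihood test with library as a block and Benjamini-Hochberg adjustment over all 6705 genes. On the log2 scale capillary EC exceeded arterial EC by 1.20 (SE 0.22, adjusted p = 9.01e-05) and venous EC by 2.69 (SE 0.26, adjusted p = 9.13e-12). Arterial EC exceeded venous EC by 1.49 (SE 0.26, adjusted p = 5.43e-05). The difference of capillary EC from pericytes was 3.74 (SE 0.28) and from microglia 7.53 (SE 0.30). Pericytes exceeded arterial SMC by 2.73 (SE 0.38), and fibroblasts lay 1.36 below capillary EC (log2 difference -1.36, SE 0.24). Cxcl12 therefore differed between each pair of neighbouring EC segments by more than the spread between libraries.

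Cxcl1, a neutrophil-attracting ligand, had its highest mean of the tested classes in venous EC, but varied more between libraries than between most classes. Venous EC held 1758 CPM in CSD 1, 2565 in CSD 2, 415 in HC 1 and 139 in HC 2. Fibroblasts came next with 175 CPM in CSD 1, 161 in CSD 2, 417 in HC 1 and 1073 in HC 2. Venous EC lay above fibroblasts in both CSD libraries only, and fibroblasts were level with it in HC 1 and above it in HC 2. In these 2 classes the groups stood in opposite order, with CSD above HC in venous EC and below it in fibroblasts. The fibroblast order leaned on single cells. Without the cell of each library with most Cxcl1, fibroblasts held 43.6 CPM in CSD 1, 119 in CSD 2, 89.5 in HC 1 and 297 in HC 2, and the groups overlapped. Pericytes (110 ± 91.3 CPM), arterial EC (96.3 ± 27.2), choroid plexus cells (72.7 ± 16.05) and capillary EC (60.4 ± 34.9) overlapped one another. Microglia held 3.13 ± 1.94 CPM, and none of 113 T cells had a Cxcl1 UMI, which allows a share of cells with a UMI of up to 2.65% and sets no limit on cells expressing the gene below detection. BAM, which were not tested, held 217 CPM in CSD 1, 70.7 in HC 1 and 868 in HC 2, from 13, 6 and 15 UMIs. Free RNA carried 25.4 ± 5.38 CPM.

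Cxcl1 was detected in few cells of each vascular class. A UMI was found in 27.0% of venous EC, 27.1% of fibroblasts, 3.61% of capillary EC and 0.547% of microglia. At 500 UMIs per cell the shares were 17.0%, 12.9%, 1.39% and 0.153%. Choroid plexus cells, the deepest class, had a share of 19.3% in full and 2.88% at that depth, and through their number and depth they supplied 42.7% of all Cxcl1 UMIs in cells. Venous EC, 1.10% of cells, supplied 12.3% of them. Venous EC exceeded capillary EC on the log2 scale (capillary minus venous -4.14, SE 0.40, edgeR adjusted p = 3.10e-11) and arterial EC (arterial minus venous -3.45, SE 0.50, adjusted p = 1.18e-06). Capillary and arterial EC were not separated (log2 difference -0.69, 95% interval -1.82 to 0.44). Fibroblasts exceeded capillary EC by 2.81 (SE 0.53, adjusted p = 2.10e-05).

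Cxcl2, the neighbour of Cxcl1 with the same receptor, was a gene of myeloid cells as well as of a few EC. Microglia held 316 CPM in CSD 1, 119 in CSD 2, 314 in HC 1 and 171 in HC 2, with pool 1 above pool 2 in both groups. Venous EC held 812, 256, 169 and 19.9 CPM in the same order, and arterial EC 409, 0, 315 and 184 CPM. The ranges of these 3 classes overlapped. Capillary EC lay lower, at 41.3, 22.2, 7.62 and 16.3 CPM, and no Cxcl2 UMI was found in 70 fibroblasts or 152 ependymal cells, which allows shares of cells with a UMI of up to 4.29% and 1.97%.

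In BAM, resident macrophages of the perivascular space and meninges, Cxcl2 reached 4613 CPM in CSD 1, 3418 in HC 1 and 4861 in HC 2. CSD 2 held only 4 BAM, so the class could not be tested. A Cxcl2 UMI was found in 48.6% of BAM and 9.92% of microglia, and these shares were 45.7% and 4.51% at 500 UMIs per cell. The top 5% of microglia held 88.3% of the microglial Cxcl2 UMIs. In EC a Cxcl2 UMI was found in 0.994% of capillary EC and 11.3% of venous EC, the latter share being 2.52% at 500 UMIs per cell.

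Between classes, Cxcl2 was lower in capillary EC than in microglia (log2 difference -3.77, SE 0.41, edgeR adjusted p = 1.52e-11), venous EC (-3.62, SE 0.54, adjusted p = 3.66e-06) and arterial EC (-3.24, SE 0.52, adjusted p = 7.60e-06). The arterial value came from few cells, since the cell with most Cxcl2 held 68 of 84 UMIs in CSD 1, all 55 in HC 1 and 19 of 20 in HC 2. Without the cell of each class and library with most Cxcl2 UMIs, an alternative chosen after seeing the data, the difference between capillary and arterial EC was -0.74 (adjusted p = 0.636) and that between capillary and venous EC -3.56 (adjusted p = 7.28e-07). With all cells, DESeq2 called neither difference (adjusted p = 0.275 and 0.345). Likewise all 21 pericyte UMIs of Cxcl2 lay in 1 cell of CSD 1, and all 20 astrocyte UMIs in 1 cell of HC 2.

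Cxcl9 and Cxcl10, the interferon-induced pair, differed in whether they could be measured. Cxcl9 had 15 UMIs in all cells together, too few for any test. Of these, 9 lay in 1 of the 18 fenestrated EC of HC 2, and only 1 was found among 3823 capillary EC. Cxcl10 was found mainly outside the endothelium. Ependymal cells held 1325 CPM in CSD 1, 10.99 in CSD 2, 964 in HC 1 and 258 in HC 2, and CSD 2 was set apart from the other 3 libraries there. Fibroblasts held 175, 717, 208 and 817 CPM in the same order, and in CSD 2 all 40 of these UMIs came from 1 cell. Microglia were steadier, at 170.0, 140.2, 257 and 245 CPM.

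Capillary EC held 5.02 ± 5.15 CPM of Cxcl10, below the 22.3 CPM of free RNA. A Cxcl10 UMI was found in 0.419% of capillary EC, 16.3% of microglia, 21.4% of fibroblasts and 30.3% of ependymal cells. Microglia supplied 53.2% and ependymal cells 14.4% of its UMIs in cells. Capillary EC lay below microglia (log2 difference -5.75, SE 0.51, edgeR adjusted p = 5.96e-15) and fibroblasts lay above capillary EC (6.503, SE 0.67, adjusted p = 7.97e-12). Venous EC, with 71.6, 12.2, 288 and 0 CPM, exceeded capillary EC (capillary minus venous -4.23, SE 0.86, adjusted p = 0.000777), but 34 of the 44 venous UMIs lay in HC 1, and 19 of those in 1 cell. This difference was -2.61 without HC 1 (adjusted p = 0.585), -5.42 without CSD 1 (adjusted p = 0.000112) and -3.70 without the cell with most Cxcl2 (adjusted p = 0.0539).

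Cxcl16, the transmembrane ligand, was found mainly in fibroblasts, microglia and BAM. Fibroblasts held 195, 179, 116 and 176 CPM and microglia 78.7, 121, 87.2 and 126 CPM in CSD 1, CSD 2, HC 1 and HC 2. Fibroblasts were the higher in each library, although the ranges overlapped. BAM, which were not tested, held 167 CPM in CSD 1, 58.9 in HC 1 and 116 in HC 2, with a UMI in 24.3% of cells. The other 9 tested classes held at most 9.94 CPM on average, close to the 8.15 ± 1.43 CPM of free RNA, and capillary EC held 2.04 ± 0.65 CPM. Microglia supplied 76.6% of the Cxcl16 UMIs in cells. Cxcl16 was higher in microglia than in capillary EC (capillary minus microglia -5.92, SE 0.28, edgeR adjusted p = 1.08e-24) and in fibroblasts than in capillary EC (6.01, SE 0.49, adjusted p = 1.43e-14).

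**Figure D1:**
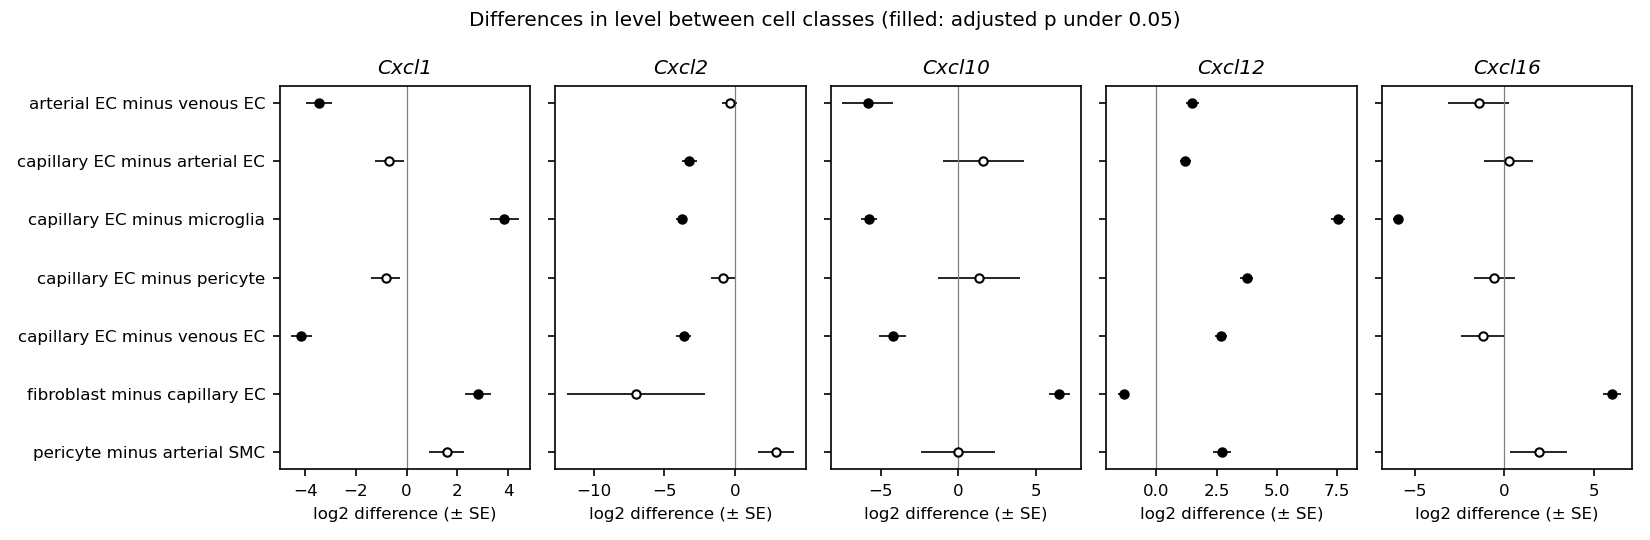
Log2 difference between classes on the horizontal axis (point, edgeR estimate; bar, SE) for 7 contrasts of 5 chemokines, with filled points for an adjusted p under 0.05. Cxcl12 was filled in all 7 contrasts, and of the 35 points 20 were filled.

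Set against all genes, a call between classes was common. Of the 5 members with enough counts, 2 were called between capillary and arterial EC, where 9.84% of all genes were called, 4 between capillary and venous EC (3.7% of genes) and 3 between arterial and venous EC (6.5%). All 5 were called between capillary EC and microglia (65.3%), 4 between fibroblasts and capillary EC (30.6%), 1 between capillary EC and pericytes (37.7%) and 1 between pericytes and arterial SMC (33.2%). Cxcl9 did not pass the filter on low counts.

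The chemokines shared cells unevenly. Among capillary EC, a Cxcl2 UMI was found in 15.2% of the 138 cells with Cxcl1 and in 0.461% of those without, in the same direction in each library, with median depths of 1979 and 1088 UMIs. Cxcl12 was found in 68.8% of capillary EC with Cxcl1 and 77.7% of those without, with HC 1 the other way (83.3% and 79.4%). In microglia, Cxcl10 was found in 33.6% of cells with Cxcl2 and 14.4% of cells without, at median depths of 2894 and 1986 UMIs. Deeper cells have more of any gene, and how far depth accounts for these shares was not tested.

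As a description, each gene's log2(CPM + 1) was correlated with those of 7400 others over 44 points, 11 classes in 4 libraries that share depth and free RNA within a library. The genes most like Cxcl12 were Emcn (Pearson's r = 0.92), a mucin-like protein of capillary and venous endothelium, then Vwa1, Thbd, Tshz2 and Slc9a3r2. Nearest to Cxcl2 were Stab1 (r = 0.81), Lyz2, Slco2b1, Ankrd33b and Cd14, among which Lyz2 and Cd14 are myeloid genes. For Cxcl16 they were Serpinf1 (r = 0.83), Ctsb, Trf, Ctsz and Olfml3, and for Cxcl1 Tmtc1 (r = 0.83), Ifitm2, Ptpn14, Cgnl1 and Slc22a8. Cxcl10 had no close partner, with Itm2c (r = 0.64), Ang, Saraf, Rnase4 and Scn7a leading. Cxcl9 was too low to be ranked.

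CSD was then compared with HC within each class, the comparison the study was built on. Cxcl1 and Cxcl2 rose in venous EC, and no other pair of chemokine and class passed the test. Of 66 pairs, 25 had enough counts, and 2 were called by edgeR's quasi-likelihood test, against 0.102% of the 49994 tests over all genes and classes. The libraries of the groups did not overlap in 10 of the 25 pairs, 6 with CSD higher and 4 with CSD lower, against 30.2% of all tests. In venous EC 2 of 3 members were called (1.17% of genes there), in capillary EC 0 of 3 (0.151%) and in arterial EC 0 of 3 (0.0373%). DESeq2 called 1 of 3 in venous EC and none in capillary or arterial EC, and its share over all genes is not given here. In capillary and arterial EC 2 and 0 members had an unadjusted edgeR p under 0.05, against 8.33% and 5.825% of genes.

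**Figure D2:**
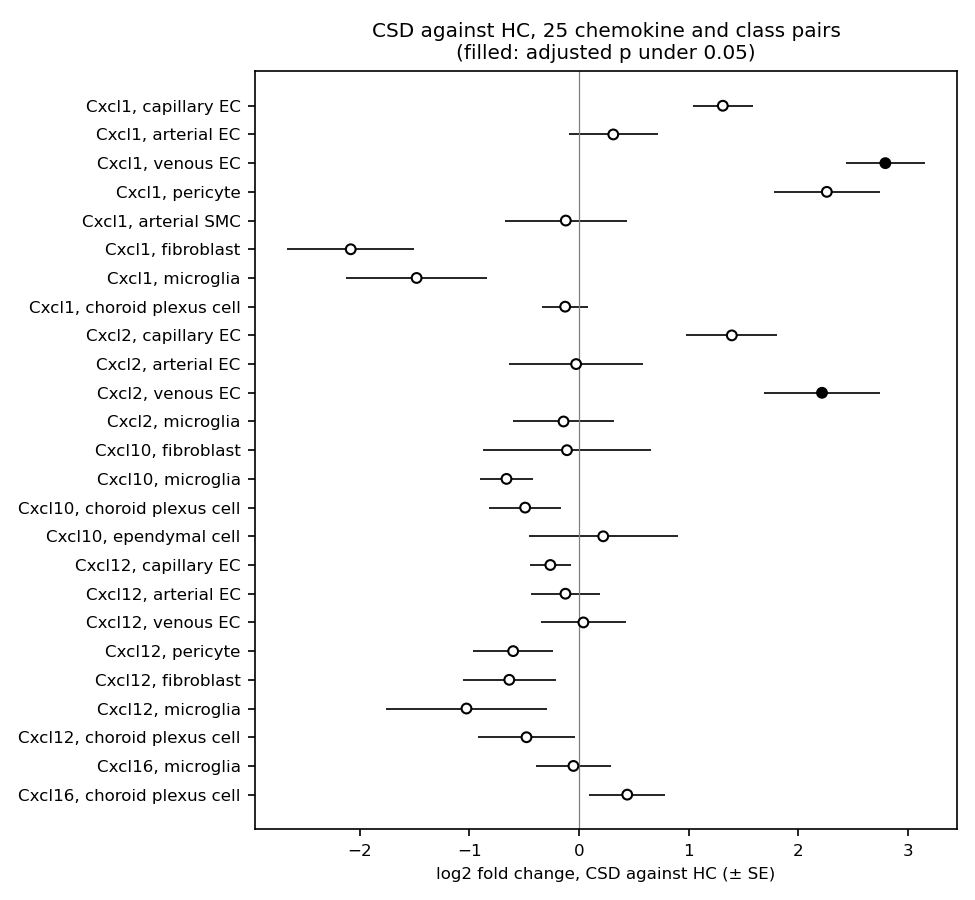
Log2 fold change of CSD against HC on the horizontal axis (point, edgeR estimate; bar, SE) for the 25 chemokine and class pairs with enough counts, with filled points for an adjusted p under 0.05. The 2 filled points are Cxcl1 and Cxcl2 in venous EC, at 2.80 and 2.22, and the Cxcl12 points of the EC classes lie near 0.

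The venous Cxcl1 levels given above, 1758 and 2565 CPM in CSD against 415 and 139 CPM in HC, did not overlap. They gave a log2 fold change of 2.80 (SE 0.36, a 6.94-fold rise, edgeR adjusted p = 1.99e-05), and DESeq2 also called it (2.91, adjusted p = 0.00566). It stayed called whichever library was left out, from 2.36 without HC 2 to 3.94 without HC 1. Cxcl2, at 812 and 256 CPM against 169 and 19.9 CPM, rose by 2.22 (SE 0.53, 4.65-fold, edgeR adjusted p = 0.0275). It was 4.69 without HC 1 (adjusted p = 4.92e-05). The Cxcl2 call was lost with DESeq2 (adjusted p = 0.906), without CSD 1 (0.534), without HC 2 (0.159), at 1000 UMIs per cell (0.262) and with a stricter gate (0.131).

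Both rises leaned on a few cells. In venous EC the cell with most Cxcl1 held 68 of 221 UMIs in CSD 1, 184 of 210 in CSD 2, 21 of 49 in HC 1 and 3 of 7 in HC 2. Most of the CSD 2 signal was thus a single cell of 18932 UMIs, 23.1% of all UMIs of that library's venous EC. It carried 85 UMIs of Ackr1, 223 of Vcam1, 78 of Icam1 and 46 of Cldn5, the last a tight junction gene of brain EC. None of its UMIs came from Lyz2, S100a8, Vtn or Dcn, which mark myeloid cells, neutrophils, pericytes and fibroblasts. The cell with most Cxcl1 was also the cell with most Cxcl2 in CSD 1, CSD 2 and HC 1.

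With that cell left out of every class and library, venous Cxcl1 stood at 1326 CPM in CSD 1, 413 in CSD 2, 286 in HC 1 and 88.0 in HC 2. The groups still did not overlap, but the fold change was 2.06 (SE 0.53) and the call was lost (edgeR adjusted p = 0.1703). Left out by its Cxcl2 count instead, the top cell took Cxcl1 to 1.98 (SE 0.47, adjusted p = 0.0590). Without it, Cxcl2 itself stood at 520.1, 31.8, 122 and 0 CPM, and CSD 2 fell among the HC libraries. Both alternatives were chosen after seeing the data.

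**Figure D3:**
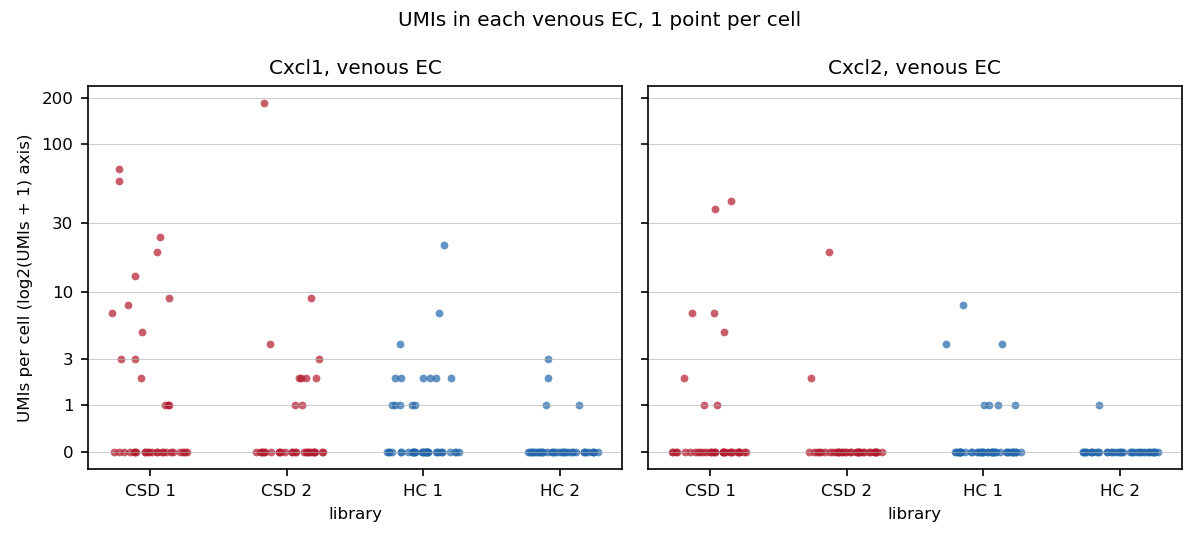
UMIs of Cxcl1 (left) and Cxcl2 (right) in each venous EC by library, with a log2(UMIs + 1) vertical axis and 1 point per cell (red, CSD; blue, HC). CSD 1 has 5 cells with at least 10 Cxcl1 UMIs, CSD 2 and HC 1 have 1 each and HC 2 has none, and the highest point is the CSD 2 cell with 184.

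The share of venous EC with a Cxcl1 UMI separated the groups less than the level did. It was 39.5% in CSD 1 (15 of 38 cells), 27.8% in CSD 2 (10 of 36), 30.4% in HC 1 (14 of 46) and 10.3% in HC 2 (4 of 39). CSD 2 lay below HC 1, so the groups overlapped. At 500 UMIs per cell the shares were 23.7%, 19.4%, 21.7% and 2.56%, in the same order. For Cxcl2 the shares were 21.1%, 5.56%, 15.2% and 2.56% before thinning.

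In capillary EC the same direction was seen at a lower level. Cxcl1 stood at 109 CPM in CSD 1, 62.5 in CSD 2, 36.6 in HC 1 and 33.4 in HC 2, and the groups did not overlap. The log2 fold change of 1.31 (SE 0.27) did not pass adjustment (edgeR adjusted p = 0.113). Of 14 alternatives 10 did not call it, and its log2 fold change ran from 0.866 to 1.72 over them. Those that called it included leaving out CSD 2, HC 1 or HC 2. In such fits a lone library is assumed to vary like the other group. Without the cell with most Cxcl1 the levels were 82.6, 48.2, 27.5 and 28.5 CPM, and the difference was not called. Capillary Cxcl2, at 41.3 and 22.2 against 7.62 and 16.3 CPM, had a log2 fold change of 1.39 (SE 0.42, edgeR adjusted p = 0.319). The fold change was 1.85 without CSD 2 and 2.05 without HC 2, and 11 of 14 alternatives did not call it. DESeq2 gave no adjusted p for either gene in capillary EC, and is counted above among the alternatives that did not call them. The summed immediate-early and dissociation genes moved with them in this class, at 17211 and 21725 CPM in CSD against 12682 and 14122 CPM in HC. Of 16 tested, edgeR called 0 (0.151% of all genes) and DESeq2 6. An unadjusted edgeR p under 0.05 was found for 13 of the 16 and for 8.33% of all genes. Of a list of NF-kappaB induced genes 10 were tested there, with a median log2 fold change of 0.62. From this list edgeR called 0 (0.151% of all genes) and DESeq2 2. The share of all genes called by DESeq2 is not given here, so its 6 and 2 calls are not set against one. An unadjusted edgeR p under 0.05 was found for 5 of them and for 8.33% of all genes. The part of either list in the capillary values of Cxcl1 and Cxcl2 was not tested.

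Taking all EC as 1 class, subtypes and unclassed EC together, was added after seeing the data. Cxcl1 then stood at 215 CPM in CSD 1, 237 in CSD 2, 74.0 in HC 1 and 54.9 in HC 2. It rose by 1.87 on the log2 scale (SE 0.18, edgeR adjusted p = 0.0267). Without the single EC of each library with most Cxcl1 the levels were 181, 152, 63.5 and 46.6 CPM, still apart between groups. In CSD 2 that cell held 184 of 503 UMIs, and EC of no subtype held 179. EC of no subtype stood at 94.5 CPM in CSD 1, 727 in CSD 2, 89.3 in HC 1 and 142 in HC 2. There CSD 2 alone was raised, and its part in the rise over all EC was not tested. The share of EC with a Cxcl1 UMI was 7.65%, 5.06%, 5.57% and 2.74% in the same order. In these shares CSD 2 lay below HC 1, so the groups overlapped. Cxcl2 (1.27, adjusted p = 0.620) and Cxcl12 (-0.22, adjusted p = 0.851) were not called in all EC.

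**Figure D4:**
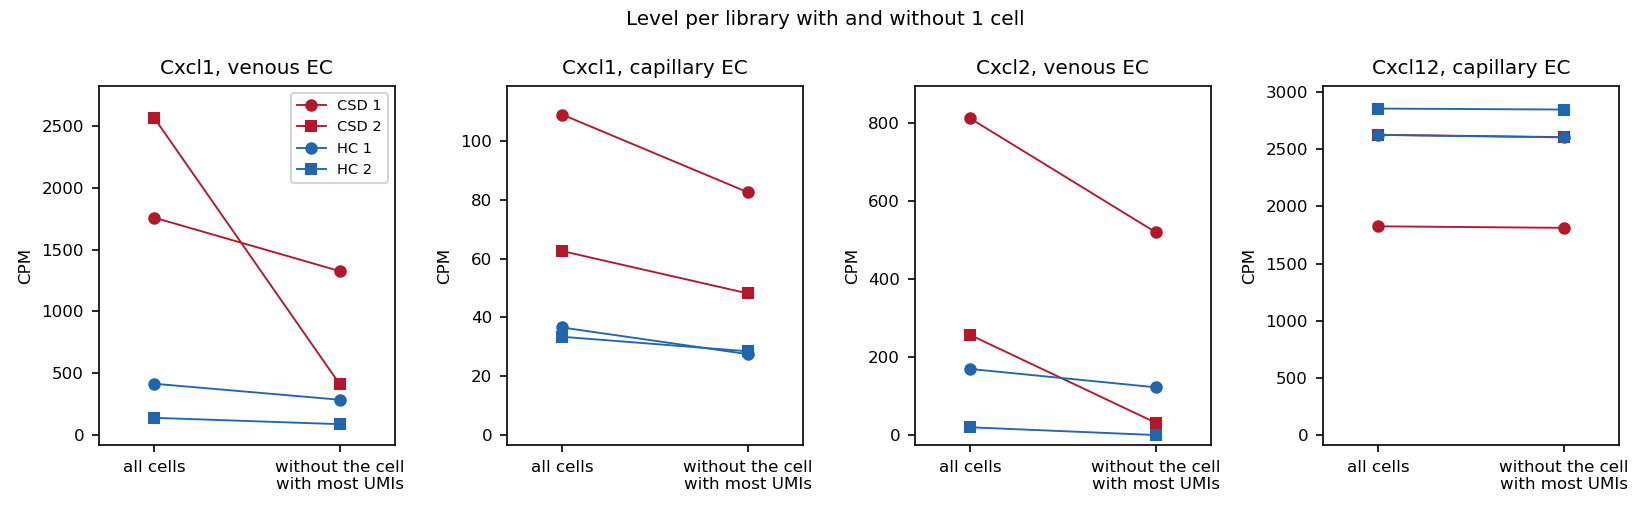
CPM per library on the vertical axis, with all cells (left of each panel) and without the cell of that class and library with most UMIs of the gene (right; red, CSD; blue, HC). Venous Cxcl1 of CSD 2 drops from 2565 to 413 CPM and venous Cxcl2 of CSD 2 falls among the HC libraries, whereas capillary Cxcl12 barely moves.

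Outside the endothelium Cxcl1 did not move in 1 direction. Pericytes held 165 and 206 CPM in CSD against 10.2 and 57.6 CPM in HC (log2 fold change 2.26, SE 0.48, edgeR adjusted p = 0.830), from 13, 44, 1 and 10 UMIs. Fibroblasts held 175 and 161 against 417 and 1073 CPM (-2.08, SE 0.58, edgeR adjusted p = 0.260). The fibroblast with most Cxcl1 held 7 of 9 UMIs in CSD 1, 3 of 9 in CSD 2, 15 of 18 in HC 1 and 50 of 67 in HC 2. Without that cell the groups overlapped. The share of fibroblasts with a Cxcl1 UMI was 20%, 40%, 30% and 25.7% in the same order, and also overlapped. Choroid plexus cells, at 64.2, 76.4, 56.7 and 93.4 CPM, showed a log2 fold change of -0.13 (95% interval -0.54 to 0.28). None of these passed the test with all libraries. Pericyte Cxcl1 passed the filter on low counts only through the CSD libraries, and fibroblast Cxcl1 only through the HC libraries. The calls that follow for these 2 classes are therefore a description. Pericyte Cxcl1 was called without HC 2 (4.18, adjusted p = 0.00164) and without the filter on low counts (2.22, adjusted p = 0.000939). Fibroblast Cxcl1 was called without CSD 1, CSD 2 or HC 1 (adjusted p = 0.022, 0.0406 and 0.0193) and not without HC 2 (-1.19, adjusted p = 0.971).

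Whether the CSD effect itself differed between classes was tested by interaction. For Cxcl1 it was larger in venous than in capillary EC by 1.65 on the log2 scale (SE 0.33, edgeR adjusted p = 0.00140), 1 of 4 members called where 0.13% of genes were. It was 2.78 without HC 1 and 2.30 without CSD 1. The call was lost without CSD 2 (0.98, adjusted p = 1.0), without HC 2 (1.15, 0.905), with DESeq2 (1.87, 0.9997) and without the cell with most Cxcl1 (0.84, 1.0). Between arterial and capillary EC 0 of 3 members were called by edgeR or DESeq2 (0.0709% of genes by edgeR). An unadjusted edgeR p under 0.05 was found for 2 of the 3 and for 3.97% of genes. Between microglia and capillary EC 0 of 5 were called (0% of genes). Of these 5, 3 had an unadjusted edgeR p under 0.05, as had 3.096% of genes. Cxcl1 was among the 3 (-2.88, SE 0.55, edgeR adjusted p = 0.611). Microglial Cxcl1 rested on 33 UMIs, at 0.697 to 4.98 CPM per library, below the 25.4 CPM of free RNA.

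Cxcl12 had enough counts in 7 classes, and neither edgeR nor DESeq2 called it with CSD in any of them, nor was an unadjusted edgeR p under 0.05. In capillary EC, at 1827 and 2627 CPM against 2626 and 2857 CPM, the log2 fold change was -0.26 (95% interval -0.62 to 0.10, edgeR adjusted p = 0.759). CSD 1 lay below the other libraries and the groups overlapped by 1 CPM. In arterial EC the interval was -0.75 to 0.50 and in venous EC -0.72 to 0.80, and in both the sign depended on which library was left out. In pericytes (241, 117, 287 and 219 CPM) it was -1.32 to 0.12. Fibroblasts held 896 and 842 CPM in CSD against 1112 and 1746 CPM in HC, and the groups did not overlap (-0.64, 95% interval -1.47 to 0.20, edgeR adjusted p = 0.811).

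Cxcl10 in microglia lay lower in both CSD libraries (170.0 and 140.2 CPM) than in both HC libraries (257 and 245 CPM). The log2 fold change of -0.66 (SE 0.24) had an unadjusted p under 0.05 and did not pass adjustment (edgeR adjusted p = 1.0). In ependymal cells the groups overlapped (95% interval -1.11 to 1.55). Microglial Cxcl16 differed by -0.05 (95% interval -0.72 to 0.62) and microglial Cxcl2 by -0.14 (-1.05 to 0.77).

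Listed genes of the same pathways were read in venous EC beside the chemokines, as the NF-kappaB and immediate-early lists were in capillary EC above. Of 18 NF-kappaB induced genes 6 were tested, and 3 rose, where 1.17% of all genes were called: Vcam1 and Icam1, adhesion molecules for leukocytes, and Csf1, a growth factor of macrophages. Vcam1 stood at 2299 and 4079 CPM in CSD against 567 and 557 CPM in HC (log2 fold change 2.48, SE 0.32, edgeR adjusted p = 1.99e-05). Icam1 stood at 1472 and 1881 against 745 and 278 CPM (1.59, SE 0.34, adjusted p = 0.0100). Csf1 stood at 247 and 867 against 25.4 and 39.8 CPM (4.09, SE 0.64, adjusted p = 0.000222). With 3 and 2 UMIs in HC 1 and HC 2, Csf1 passed the filter on low counts only through the CSD libraries. The list was also chosen with earlier results known, so the 3 calls are a description. Without the cell with most Cxcl1 all 3 still separated the groups. Vcam1 then stood at 2019.7 and 1763 against 357 and 506 CPM (2.15, SE 0.31, adjusted p = 0.0106), Csf1 had an adjusted p of 0.0313, and Icam1 kept a log2 fold change of 1.52 (SE 0.36) with an adjusted p of 0.113. DESeq2 called Vcam1 and Csf1 but not Icam1 (adjusted p = 0.286). Of 18 interferon induced genes 6 were tested, and of 17 immediate-early and dissociation genes 15. Neither edgeR nor DESeq2 called any of these in venous EC. An unadjusted edgeR p under 0.05 was found for 1 and 0 of them and for 7.68% of all genes there. Of the 6 proteases that cut or shed CXC chemokines 1 was tested there and not called, and none of the other CXC ligands or CXC receptors had enough counts. The summed immediate-early list stood at 25365, 20005, 19765 and 24874 CPM in CSD 1, CSD 2, HC 1 and HC 2, and the groups overlapped.

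Markers of other cells were also counted in the venous class. Summed microglial markers stood at 231, 122, 152 and 696 CPM in CSD 1, CSD 2, HC 1 and HC 2, and BAM markers at 55.7, 36.6, 119 and 0 CPM. All 8 T cell markers and 7 of 8 neutrophil markers were at 0 in all 4 libraries. Summed oligodendrocyte markers were the highest of the non-endothelial lists and stood apart between groups, at 1846 and 1588 CPM in CSD against 644 and 935 CPM in HC, with 5 of their 8 genes at 0. This was not particular to venous EC. The sum stood apart in the same direction in capillary EC (1400 and 1180 against 804 and 870 CPM) and arterial EC (1983 and 1301 against 1067 and 893 CPM). In the usual library order it stood at 127, 131, 41.0 and 121 CPM in pericytes and 89.8, 91.7, 80.5 and 86.4 CPM in microglia. In astrocytes it stood at 1290, 618, 873 and 1049 CPM. Which of its genes made up the sum is not given here, and whether it came from oligodendrocytes was not tested. In venous EC, markers of oligodendrocyte precursor cells were also higher in CSD (55.7 and 24.4 against 8.47 and 0 CPM). Those of choroid plexus cells (278 and 85.5 against 635 and 418 CPM), arterial SMC and B cells were lower. Fibroblast markers stood at 446, 0, 8.47 and 39.8 CPM and ependymal markers at 843, 427, 500 and 756 CPM in CSD 1, CSD 2, HC 1 and HC 2, without separating the groups. The ependymal list holds Tm4sf1, which was among the leading genes of arterial EC. The venous markers themselves stood at 4352 and 4983 against 3938 and 4076 CPM. HC 2, the library with the lowest Cxcl1, had the highest microglial sum and the fewest venous UMIs (50293, against 81880 to 125685 in the others), and the part of any of these in the comparison was not tested.

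The receptors were counted in the same classes. Cxcr2, which binds Cxcl1 and Cxcl2, had 4 UMIs in the 11 neutrophils of CSD 1 (409 CPM) and 1 in capillary EC. The same neutrophils held its ligands, Cxcl2 at 14825 CPM and Cxcl1 at 818 CPM. Cxcr3, which binds Cxcl9 and Cxcl10, stood at 103 ± 40.3 CPM in T cells, Cxcr6, which binds Cxcl16, at 183 ± 73.3 CPM, and Cxcr4, which binds Cxcl12, at 106 ± 29.3 CPM (n = 4 libraries). In capillary EC Cxcr4 had 7 UMIs in 3823 cells. CXC receptors reached the filter for the CSD test in T cells and ependymal cells, 1 gene each. Neither edgeR nor DESeq2 called them, and neither had an unadjusted edgeR p under 0.05.

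The atypical receptors take up chemokines without signalling for migration. Ackr3, a scavenger of Cxcl12, stood at 153 ± 16.9 CPM in capillary EC, 180 ± 55.4 in pericytes, 97.4 ± 19.0 in venous EC, 57.2 ± 15.99 in arterial SMC, 53.0 ± 8.73 in ependymal cells and 1.35 ± 1.13 in microglia. It was higher in capillary EC than in microglia (log2 difference 6.37, SE 0.27, edgeR adjusted p = 1.01e-27) and in pericytes than in arterial SMC (1.24, SE 0.26, adjusted p = 0.000137). Ackr1, a venular receptor that binds Cxcl1 among others, had 22 and 99 UMIs in venous EC of CSD 1 and CSD 2 and none in HC 1 and HC 2. Ackr1 was called with CSD (edgeR adjusted p = 9.39e-05), at 175 and 1209 CPM in the CSD libraries. It passed the filter on low counts only through those libraries, so the call is given as a description. Of the 99 UMIs in CSD 2, 85 lay in the cell with most Cxcl1, and without it the CSD levels were 173 and 222 CPM (adjusted p = 0.0309). DESeq2 did not call Ackr1 (adjusted p = 0.0922).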

How the data were processed

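Brain vascular-associated cells of 4 libraries (2 CSD, 2 HC, each a pool of 4 mice) were profiled by droplet-based single-cell RNA sequencing. The authors deposited raw UMI counts per gene and barcode for all barcodes, with no cell calling, made with Cell Ranger against GRCm38. The submitters' processing notes give version 4.0, and the sources used here differ on it. Replicates were not pooled further and no normalized values were used.

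Cells were barcodes with at least 500 UMIs, at least 250 genes and at most 25% mitochondrial UMIs. A cell joined the class with most of its 8 fixed markers detected, at least 3 of them, if the next class had at most 2/3 as many. EC were then split by at least 2 of 8 subtype markers, with ties left out. The gate's thresholds were set after cell counts and marker levels had been seen and before any test of CSD against HC. The 6 genes and all lists were chosen with earlier results of these data known. The named genes were the 6 members in each tested class, called genes of each list, the receptors, and for each member the 5 genes most correlated with it.

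Within each class the UMI counts of a library's cells were added up, and classes with at least 10 cells in every library entered edgeR 4.0.16 in R 4.3.3 (TMM normalization, filterByExpr, glmQLFit and glmQLFTest, two-sided, Benjamini-Hochberg over all genes tested, threshold 0.05). CSD was compared with HC per class, classes were compared in 1 fit with library as a block, and the class by condition interaction was fitted for pairs of classes. The planned contrast of BAM with microglia could not be fitted because CSD 2 held 4 BAM. SE is the log2 difference divided by the square root of the F statistic, and 95% intervals are 1.96 SE to either side. With so few libraries these intervals are too narrow. For microglial Cxcl1 with CSD the interval was -2.75 to -0.22, although the unadjusted edgeR p was 0.0559. Classes of few cells rest on few UMIs, and intervals on shares (Clopper-Pearson) cover counting error only. The limit for a count of 0 is 3 cells of the total. Alternatives were DESeq2 1.42.0, RLE normalization, no filter, other cell limits, a stricter gate, doublets left out, each library left out, replicate blocks and, added after seeing the data, leaving out single cells or taking all EC as 1 class. Scrublet marked 123 cells (0.853%) as doublets but only 0.0981% in CSD 1 and 0.431% in CSD 2, where it did not work, so doublets were kept. The fits were tested on simulated class sums, in which no single cells were modelled. Promoter sequences and start sites came from RefSeq (GRCm38.p6), in which 5 of the 6 members were matched.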

Additional observations from a re-analysis of the deposited data

Results flagged for a closer look

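Cxcl1 was higher in both CSD libraries than in both HC libraries in capillary EC, venous EC and pericytes. It was lower in both in fibroblasts and microglia. It passed the filter on low counts only through the CSD libraries in pericytes and only through the HC libraries in fibroblasts and microglia. Without the cell of each library with most Cxcl1, the groups overlapped in fibroblasts. The log2 fold change in capillary EC exceeded that in fibroblasts by 3.39 and that in microglia by 2.79. For venous EC these differences were 4.88 and 4.28, and for pericytes 4.34 and 3.74. The class pairs were picked because the groups stood apart in opposite order, so the sign of these differences was fixed by that choice. Groups stood apart in 30.2% of all tests over genes and classes. These differences between separate fits were not tested, apart from microglia and capillary EC, where the interaction was not called (-2.88, edgeR adjusted p = 0.611). Microglial Cxcl1 rested on 33 UMIs in 4567 cells. The Cxcl1 effect of CSD differed between venous and capillary EC by 1.65 on the log2 scale in edgeR's interaction test. That call was lost in 5 of 14 alternatives, among them DESeq2 and leaving out the cell with most Cxcl1 UMIs.

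Signal was also seen in classes with too few cells to test. Cxcl2 stood at 4613 CPM in BAM of CSD 1, 3418 in BAM of HC 1 and 4861 in BAM of HC 2. In the 11 neutrophils of CSD 1 it stood at 14825 CPM, from 145 UMIs. Cxcl9 stood at 326 CPM in the 18 fenestrated EC of HC 2, from 9 UMIs in 1 cell, and had no UMI in the 14 fenestrated EC of CSD 1. The groups were not compared in these classes.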

How the results depend on the processing

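The 20 calls between classes numbered 16 to 24 under every alternative. The 2 calls of CSD against HC became 7 without the filter, 1 with DESeq2, 5 to 6 when 1 library was left out (a lone library is then assumed to vary like the other group), 1 at 1000 UMIs per cell, 1 with the stricter gate, and 0 and 0 without the cell with most Cxcl1 or most Cxcl2 UMIs. The 1 interaction call became 2 without the filter, 0 with DESeq2, 0 to 2 when 1 library was left out, 2 at 1000 UMIs per cell and 0 without the cell with most Cxcl2 UMIs. Without the cell with most Cxcl1 UMIs the single call was Cxcl2 in arterial against capillary EC (-3.06, adjusted p = 0.000119), not Cxcl1 in venous EC. The share of all genes called under each alternative, the replicate block included, is not given here. The shares given above are those of the fit with all cells and libraries. Whether the counts under the alternatives reflect the chemokines or a general change in calls therefore cannot be told from them. The causes were not tested. The labels do not say that a shared number marks a batch, and same-numbered libraries deviated together in microglia (r = 0.65) and choroid plexus cells (r = 0.27), with r between -0.04 and 0.05 elsewhere. With the replicate block edgeR called 4 pairs, adding Cxcl1 in pericytes (adjusted p = 0.0326) and fibroblasts (0.00276). Both added pairs passed the filter on low counts only through the group with the higher Cxcl1, so these calls are a description. With that block Cxcl12 in venous EC turned from 0.04 to -0.058.

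Signs turned for values that had passed no test. Cxcl12 with CSD ran from -0.51 to 0.45 in arterial EC and from -0.58 to 0.55 in venous EC as 1 library was left out. Cxcl2 in pericytes against SMC was -4.87 without the cell with most Cxcl1 and -1.79 without the cell with most Cxcl2. The interaction of Cxcl10 in venous and capillary EC ran from -4.49 to 6.13 over left-out libraries, and that of Cxcl2 in arterial and capillary EC was 1.47 without the cell with most Cxcl2. Levels moved by over 1 SD in 4 of 60 class means at 10% mitochondrial UMIs and in 1 of 60 at 1000 UMIs.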

Other observations

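Among the 9 other CXC ligands listed, Pf4 and Cxcl14 were the ones with clear sources. Pf4, platelet factor 4, stood at 3309 CPM in BAM of CSD 1, 4302 in BAM of HC 1 and 5613 in BAM of HC 2. In capillary EC it stood at 13.4 ± 8.92 CPM, and it was higher in arterial than in capillary EC (capillary minus arterial -2.77, SE 0.54, edgeR adjusted p = 0.000226), a call that DESeq2 did not make. Summed BAM markers were also higher in arterial (117, 48.6, 120 and 147 CPM) than in capillary EC (39, 38.6, 41.9 and 34.8 CPM), and their part in Pf4 was not tested. Cxcl14, a ligand of epithelia and astrocytes, stood at 108 CPM in astrocytes of CSD 1, 426 in CSD 2, 196 in HC 1 and 285 in HC 2, and the groups overlapped. In capillary EC it stood at 11.4 ± 8.78 CPM.

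EC that the gate left without a subtype held Cxcl1 at 94.5 CPM in CSD 1, 727 in CSD 2, 89.3 in HC 1 and 142 in HC 2. CSD 2 stood apart, from 179 of the 268 UMIs.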
